A study of Canis lupus familiaris with 14 samples.

Results

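Dog chromosome 20 held 1146 of the 30951 genes annotated in the count table, and the 963 of them with 2 or more exon intervals, counted after overlapping intervals had been merged, are described here. The table held 24686 such multi-exon genes in all. Chromosome 20 was selected on the measured difference between lymphoma and non-lymphoma libraries, which was the lowest of any autosome. The differences between the groups, the fold changes and the counts of called genes given below are therefore descriptions, and no test of the chromosome-wide difference is given. RNA of whole blood, extracted with Trizol, was sequenced in 7 dog libraries labelled lymphoma (a malignancy of lymphocytes) and 7 labelled non-lymphoma and control, which the design text describes as having another disease. The labels used here say no more of the animals, their treatment, age or sex, and do not say that each library came from a separate dog, so any p-value reflects only how far these libraries vary. Lymphoma cells may or may not have been in the blood that was drawn, since the labels give no cell composition. In whole blood, fewer cells of a type and less RNA per cell cannot be told apart.

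As background, a chromosome is not uniform. Gene-dense stretches tend to carry short, GC-rich and broadly expressed genes, and gene-poor stretches tend to carry long genes with tissue-specific expression. In the assembly UU_Cfam_GSD_1.0, chromosome 20 carries 997 protein-coding genes, 62 of them with an olfactory receptor symbol. Among its genes with roles in blood are JAK3 and TYK2, kinases that signal from cytokine receptors, and VAV1, an exchange factor in antigen receptor signalling. The chromosome also carries the adhesion molecule genes ICAM1 and ICAM3, ELANE, which encodes neutrophil elastase, and KLF1 and EPOR, which act in red cell formation. The count table names genes by Ensembl identifier on CanFam3.1, and 0 of its identifiers were matched in that reference table, so no value below can be tied to any of these symbols. Genes are therefore given by position, exon structure and neighbourhood, and the blood label could not be checked against marker genes. Positions are CanFam3.1 as deposited.

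Of the 963 genes, 629 passed the filter on low counts and were tested, 322 had at least 1 count but did not pass, and 12 had 0 counts in all 14 libraries. Of the 334 untested genes, 254 had no library above 10 counts. In lymphoma libraries between 664 and 762 of the 963 genes had at least 1 count, with a median of 717, and in non-lymphoma libraries between 730 and 894, with a median of 836. Total counts ranged from 9845059 to 14831589 in lymphoma and from 13522628 to 21610927 in non-lymphoma libraries, and the part of depth in this gap was not tested. Lymphoma replicates 2 and 7 stood apart, with TMM scaling factors of 0.67 and 0.679 where the other lymphoma libraries had 0.91 to 1.15, and results that rest on them are given with and without them.

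The genes of chromosome 20 were lower in lymphoma blood as a group, by a small amount that was spread over many genes. The mean log2 CPM (the count scaled to the TMM-adjusted library total, on the log2 scale) over the 629 tested genes was lowest at 3.35, median 3.72 and highest at 3.77 in lymphoma, and lowest at 3.77, median 3.93 and highest at 3.997 in non-lymphoma libraries. The groups' means were thus 3.64 ± 0.16 and 3.91 ± 0.08 (SD, n = 7 each), a difference of -0.26. Of the 7 lymphoma libraries 6 were lower than all controls, and all 7 lay below the non-lymphoma median. Lymphoma replicate 2 was the lowest at 3.35 and replicate 7 the next at 3.54, and both also had the smallest totals and scaling factors of their group. Without both libraries the difference was -0.21, and with every library thinned to the lowest total it was -0.25. Over the 10922 tested multi-exon genes of the other autosomes the same mean was 3.83 ± 0.04 for lymphoma against 3.84 ± 0.06 (SD, n = 7 each), so the groups overlapped there. These are most of the genes from which the scaling factors were set, so near-equal means there follow in part from the scaling. All differences given here are relative to it. As a share of all counts, the 963 genes took 2.75 ± 0.489% for lymphoma against 3.77 ± 0.67% (SD, n = 7 each).

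**Figure D1:**
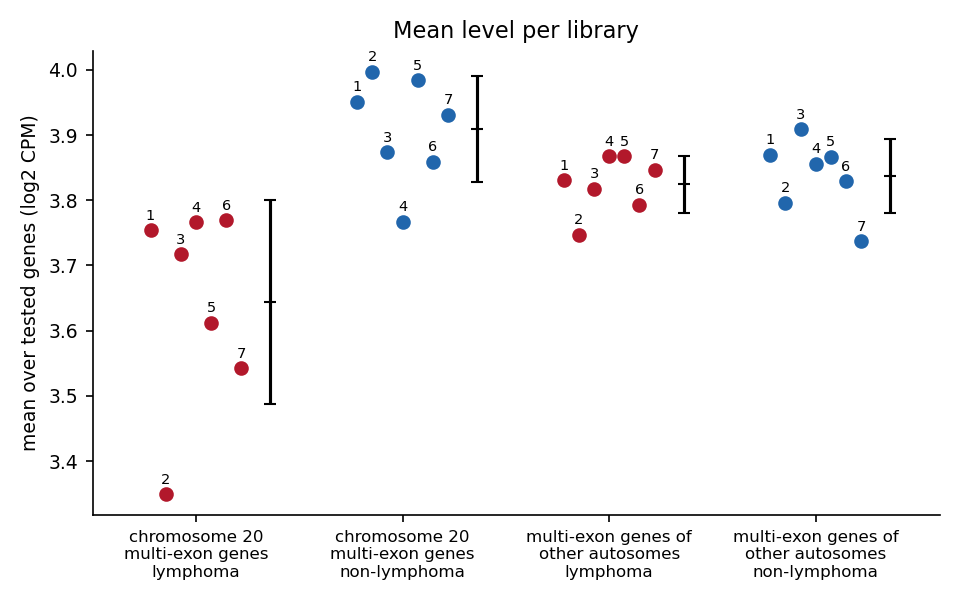
Mean log2 CPM per library over the tested multi-exon genes of chromosome 20 (left) and of the other autosomes (right). Points are libraries numbered by replicate, red for lymphoma and blue for non-lymphoma, and bars give the mean and SD (n = 7 each). On chromosome 20 the 7 lymphoma libraries lie at 3.35 to 3.77 and the non-lymphoma libraries at 3.77 to 3.997.

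The difference was spread over the bulk of the genes. Of the 629 tested genes, 438 had a negative log2 fold change, 69.6%, against 51.6% on the other autosomes. The median log2 fold change was -0.29, with an interquartile range from -0.63 to 0.09. The median over all 12836 tested genes was -0.05. By edgeR's quasi-likelihood test at an adjusted p of 0.05, 98 genes of chromosome 20 were called lower in lymphoma, 15.6% of those tested, where 7.4% of all tested genes were called lower. A further 26, or 4.13%, were called higher, where 9.21% of all tested genes were. Nothing is read from these shares, because the same contrast picked the chromosome. Log2 fold changes lay below -1 in 51 of the 629 genes and above 1 in 22. Of all 12836 tested genes 755 and 965 did. For 26 genes every lymphoma library lay below every non-lymphoma library, 4.13% against 1.75% of all tested genes, and for 4 genes every lymphoma library lay above, 0.636% against 2.03%.

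The number of calls depended on single libraries while the direction of the shift did not. The count of lower calls fell from 98 to 59 without lymphoma replicate 5 or without non-lymphoma replicate 2, and to 65 without lymphoma replicate 4 or non-lymphoma replicate 7, where 4.98% and 5.12% of all tested genes were called lower. Over all tested genes 4.39% were called lower and 6.53% higher without lymphoma replicate 5, and 5.44% and 7.17% without non-lymphoma replicate 2, where chromosome 20 had 18 higher calls in each fit. Without lymphoma replicates 2 and 7, 57 genes were called lower and 18 higher, where 3.93% and 5.89% of all tested genes were. Other tools on all libraries gave 144 lower and 35 higher calls by DESeq2 (9.69% and 10.2% of all genes) and 98 and 20 by limma-voom (7.34% and 8.15%). With upper-quartile factors edgeR gave 112 and 20 (9.2% and 7.67% of all), and without a filter on low counts 93 and 13 (3.95% and 3.03%). The count of higher calls fell from 26 to 14 without lymphoma replicate 2, to 15 without non-lymphoma replicate 6 and to 16 without non-lymphoma replicate 5, where 6.64%, 6.36% and 6.56% of all tested genes were called higher. At an adjusted p of 0.01 edgeR called 19 chromosome 20 genes lower and 4 higher, where 1.26% and 2.6% of all tested genes were. The sample numbers in the labels have 5 digits in all 7 non-lymphoma libraries and in lymphoma replicates 5 and 6, and another form in the other 5 lymphoma libraries. The file header shows 3 of those others, numbers of fewer digits in the labels, with a leading zero that brings them to 5 digits. Whether the form marks a batch is not stated, so the subset is defined by the labels' spelling alone. Within the 5-digit libraries the mean difference was -0.24, and 69.9% of 681 tested chromosome 20 genes had a negative log2 fold change. Only 2 lymphoma libraries enter there. In the fit of all libraries their chromosome 20 means were 3.612 (replicate 5) and 3.769 (replicate 6). The lowest non-lymphoma mean was 3.767, so the groups overlapped. Within this subset edgeR called 1 chromosome 20 gene lower and 0 higher, and over all genes it called 0.151% lower and 0.562% higher.

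The lower level was not even along the chromosome. In bins of 5 Mb by gene midpoint, 9 of the 10 bins with at least 10 tested genes had a negative mean difference. The first 10 Mb, with 77 tested genes, had a mean difference of -0.15, with 9 genes (11.7%) called lower and 2 (2.6%) higher. The middle, from 10 to 35 Mb, was gene-poor, with 55 tested genes and a mean difference of 0.02. There 3 genes (5.5%) were called lower and 9 (16.4%) higher. Of the genes of other autosomes with 0 to 9 multi-exon neighbours within 500 kb, 3.17% were called lower and 15.8% higher. The remaining stretch from 35 Mb to the end held 497 of the 629 tested genes and had a mean difference of -0.31. In it 86 genes (17.3%) were called lower and 15 (3.02%) higher. Over all tested genes 7.4% were called lower and 9.21% higher, the background for each count of calls by position below.

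Within the middle, 3 bins had positive mean differences, 0.12 from 15 to 20 Mb with 3 tested genes, 0.30 from 25 to 30 Mb with 5, and 0.12 from 30 to 35 Mb. In the last of these the 21 tested genes averaged a log2 CPM of 3.91 ± 0.14 for lymphoma against 3.79 ± 0.15 (SD, n = 7 each). There 5 genes were called higher and 1 lower. The bin from 35 to 40 Mb, next to it, was the only 5 Mb bin in which all 7 lymphoma libraries were lower than all controls. Its 81 tested genes averaged 3.37 ± 0.09 against 3.66 ± 0.07 (SD, n = 7 each), a difference of -0.29 with 13 called lower and 3 higher. From 40 to 55 Mb the 3 bins differed little, with mean differences of -0.25, -0.30 and -0.24.

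The far end of the chromosome was the lowest. From 55 Mb on, 103 tested genes averaged a log2 CPM of 3.37 ± 0.34 for lymphoma against 3.86 ± 0.22 (SD, n = 7 each), a difference of -0.49. There 84 of the 103 genes were lower on average in lymphoma, 21 were called lower and 0 higher. These genes had a median of 42 multi-exon neighbours within 500 kb. Of the genes of other autosomes with 31 to 69 such neighbours, 13.2% were called lower and 1.91% higher. From 55 Mb on, the lymphoma SD was the largest of the 5 Mb bins, and 3 lymphoma libraries were lower than all controls. Of the 610 runs of 20 consecutive tested genes, 538 had a negative mean. The lowest run was the last one, from 57657154 to 58083083, with a mean difference of -0.80, 17 of its 20 genes lower and 8 called lower. The highest run, from 40740084 to 42416398, had a mean difference of 0.19, with 1 gene called higher and 0 lower. It contains the gene at 40790811 to 40792794, described below, which alone differed by 3.73. The stretch from 50 to 52 Mb also broke the pattern, with 41 tested genes, a mean difference of 0.03, 5 called higher and 3 lower, between neighbours from 48 to 50 Mb and 52 to 54 Mb at -0.33 and -0.47.

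**Figure D2:**
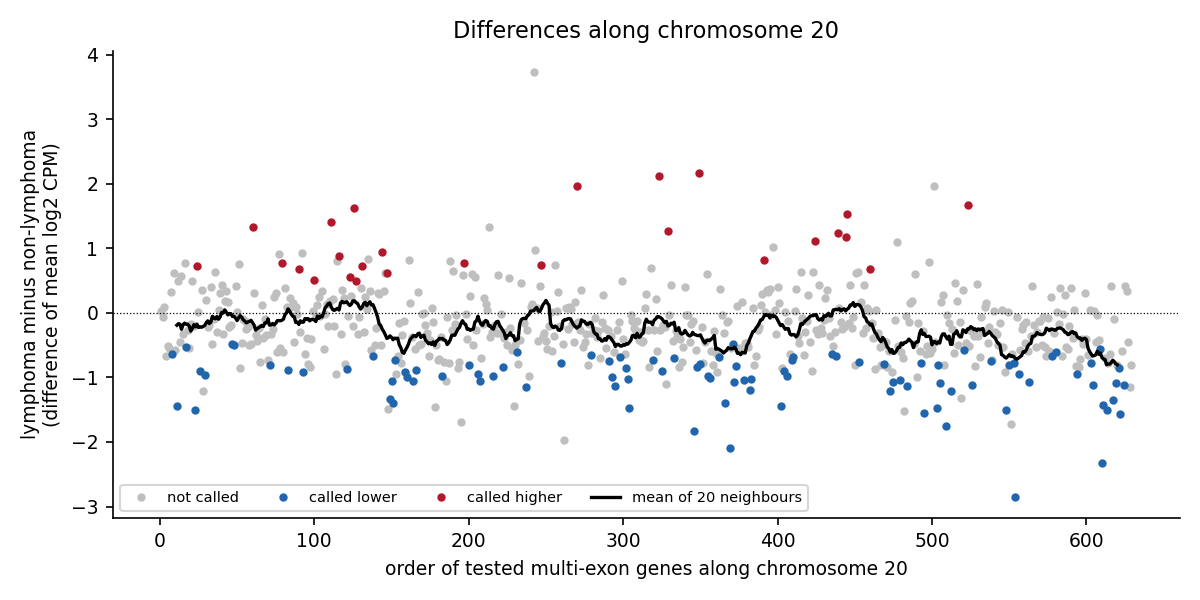
Difference of mean log2 CPM, lymphoma minus non-lymphoma, for each of the 629 tested genes in their order along chromosome 20, with edgeR calls in colour and the mean of 20 consecutive genes as a line. The line lies below 0 in 538 of 610 runs and is lowest at the last run, with a mean of -0.80.

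The longest group of neighbouring tested genes called in the same direction was 4 lower genes between 37228887 and 37312636, with log2 fold changes from -1.74 to -0.75, and all 4 overlapped another annotated gene. Reads shared between overlapping genes could not be told apart by strand, so those 4 values are uncertain. Across the chromosome, the difference of a gene and that of the next tested gene had a Pearson r of 0.14 over 628 pairs, where the other 37 autosomes had a median of 0.20 and a range from -0.01 to 0.54. Neighbouring genes share libraries and, in part, overlapping exons, and no p is given.

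Chromosome 20 stood out from the other autosomes in one property that the choice of the chromosome did not use, its gene density. The number of other annotated multi-exon genes with a midpoint within 500 kb had a median of 32 for the tested genes of chromosome 20, the highest of the 38 autosomes, followed by 26 on chromosomes 9 and 18, 25 on chromosome 1 and 22 on chromosome 6. When all tested multi-exon autosomal genes were cut into 5 classes of similar size by this number, 57.2% of the chromosome 20 genes fell into the densest class (31 to 69 neighbours), against 17.7% of the genes of other autosomes. A further 8.43% fell into the sparsest class (0 to 9 neighbours), against 25.2% elsewhere.

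The difference between the groups was lower at higher density both on chromosome 20 and elsewhere, over a wider range elsewhere. The densest minus the sparsest class was -0.36 on chromosome 20 and -0.54 on the other autosomes. On the other autosomes, the mean difference was 0.20 in the sparsest class, 0.15 in the next, 0.01 in the middle, -0.21 in the next and -0.34 in the densest class. On chromosome 20 it was 0.01, -0.11, -0.15, -0.24 and -0.35 in the same order. In the 2 denser classes, which hold 487 of the 629 genes, chromosome 20 minus the other autosomes was -0.02 and -0.01. In the 3 sparser classes, with 53, 51 and 38 genes, this was -0.19, -0.27 and -0.16. Of 360 chromosome 20 genes in the densest class, 19.4% were called lower and 2.22% higher, against 13.2% and 1.91% of 1936 genes elsewhere. In the sparsest class, 3 of 53 were called lower and 6 higher, against 3.17% and 15.8% of 2748 genes elsewhere. The small gap in the second densest class depended on the 500 kb window. Its mean difference was -0.27 on chromosome 20 and -0.20 elsewhere with a window of 250 kb, and -0.31 and -0.21 with 1000 kb. In the densest class these were -0.34 and -0.35 with 250 kb, and -0.32 and -0.31 with 1000 kb.

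**Figure D3:**
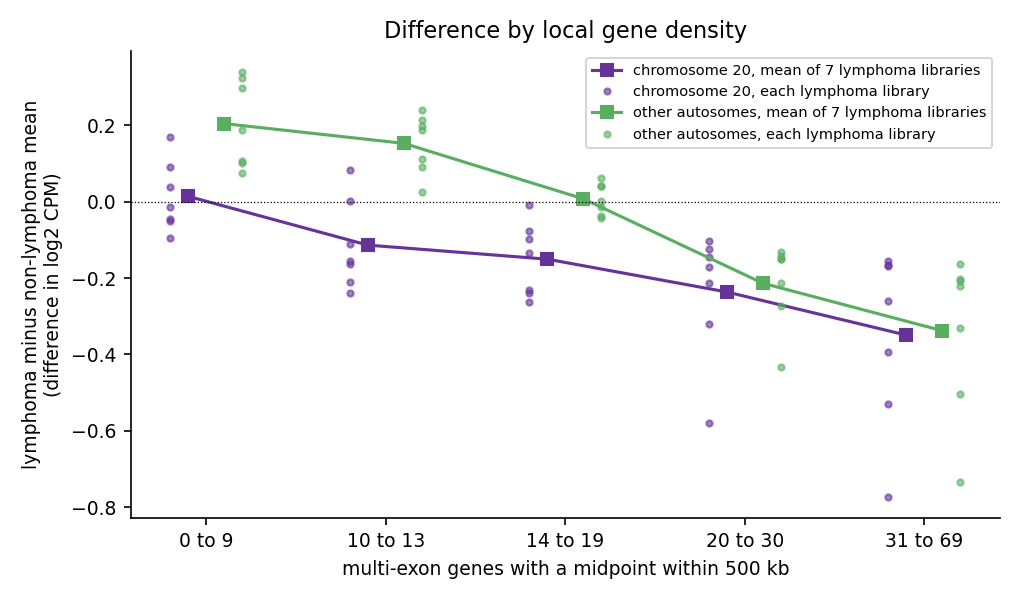
Lymphoma minus non-lymphoma difference in mean log2 CPM by the number of multi-exon genes within 500 kb, in 5 classes, for chromosome 20 (purple) and the other autosomes (green). Squares are means over 7 lymphoma libraries and dots the single lymphoma libraries, each relative to the non-lymphoma mean. Both lines slope down, from 0.20 to -0.34 on the other autosomes and from 0.01 to -0.35 on chromosome 20.

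Weighted to the density classes of the chromosome 20 genes, the genes of the other autosomes had a mean difference of -0.21, against -0.26 on chromosome 20. The remainder of -0.06 was -0.11 at the lowest and 0.00 at the highest in the 7 lymphoma libraries, with a median of -0.05, and ran from -0.06 to 0.12 in the non-lymphoma libraries with a median of -0.02. Of the lymphoma libraries 3 were lower than all controls, so the groups overlapped. By this remainder, chromosome 20 was the seventh lowest of 38 autosomes, whereas by the mean difference itself it was the lowest. The other gene-dense chromosomes were lower in lymphoma too, with mean differences of -0.21 on chromosome 18, -0.16 on chromosome 6, -0.12 on chromosome 9 and -0.11 on chromosome 1. Low means were not limited to gene-dense chromosomes. Chromosome 26, with a median of 19 neighbours and 4.4% of its genes in the densest class, had -0.25, the lowest after chromosome 20, and chromosome 31, with a median of 13, had -0.15. The weighted values of chromosomes 26 and 31 were -0.07 and 0.03. Their median log2 fold changes were nearer 0 than their means, at -0.14 and -0.01. By that median chromosome 18 was the lowest after chromosome 20, at -0.27 against -0.29. Along chromosome 20, the weighted value of the other autosomes was close to the observed mean from 40 to 50 Mb (-0.25 against -0.25, then -0.30 against -0.30). It lay apart from it in the first 5 Mb (0.13 against an observed -0.19), from 10 to 15 Mb (0.20 against -0.06, 11 tested genes), from 20 to 25 Mb (0.20 against -0.17, 15 tested genes) and from 55 Mb on (-0.33 against -0.49). It also lay above the observed mean from 5 to 10 Mb (-0.07 against -0.11) and from 15 to 20 Mb (0.19 against 0.12, 3 tested genes). The same held from 30 to 35 Mb (0.17 against 0.12) and from 35 to 40 Mb (-0.22 against -0.29). In some other bins the weighted value lay below the observed mean. From 25 to 30 Mb it was 0.20 against an observed 0.30 (5 tested genes), and from 50 to 55 Mb -0.31 against -0.24. In the 2 Mb bin from 50 to 52 Mb it was -0.31 against 0.03. This weighting was chosen after the data were seen, and the part of GC content was not tested.

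Within each group, libraries with less signal in gene-dense than in gene-poor stretches elsewhere also tended to have a lower chromosome 20 mean. The contrast used was the mean log2 CPM of the densest class minus that of the sparsest class, over the other autosomes. It ran from -1.05 in replicate 2 and -0.83 in replicate 7 to -0.26 in replicate 1 among the lymphoma libraries, and from -0.29 in replicate 4 to 0.34 in replicate 7 among the non-lymphoma libraries. Over the 7 lymphoma libraries its Pearson r with the chromosome 20 mean was 0.97 (two-sided exact permutation p = 0.00397, adjusted p = 0.0238 over 6 relations) and Spearman's rho was 0.82 (exact p = 0.0341, adjusted p = 0.144). Without the 2 libraries farthest from the median, replicates 2 and 7, r was 0.89 over 5 libraries. Over the 7 non-lymphoma libraries r was 0.73 (exact permutation p = 0.0702, adjusted p = 0.144), rho was 0.64 (exact p = 0.139, adjusted p = 0.278), and r without the 2 farthest was 0.77. The adjusted threshold was thus passed by r in lymphoma libraries alone, and whether the groups differ in this relation was not tested. Both measures come from the same library and the same scaling.

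**Figure D4:**
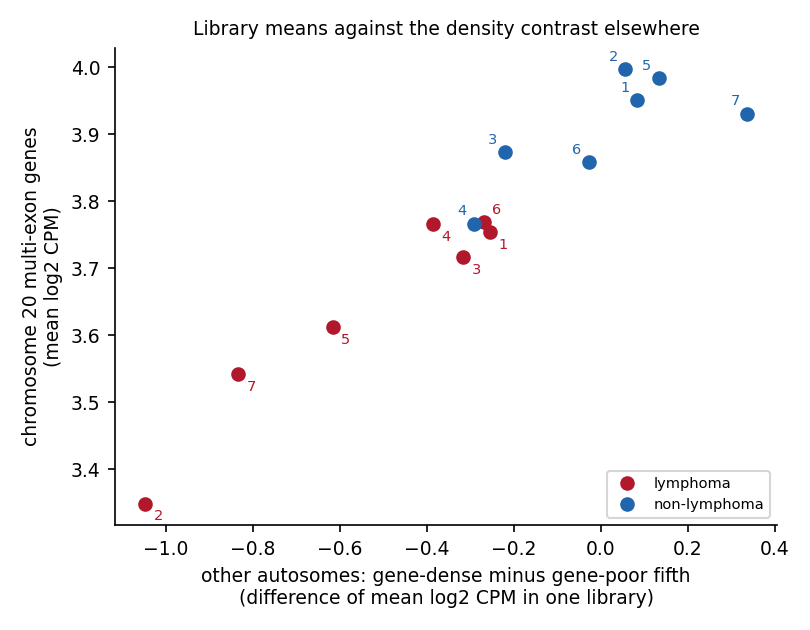
Mean log2 CPM of the chromosome 20 genes in each library against the contrast of gene-dense minus gene-poor genes on the other autosomes in the same library. Numbers are replicates, red for lymphoma and blue for non-lymphoma. Lymphoma replicates 2 and 7 lie lowest on both axes, and the 7 non-lymphoma libraries lie between -0.29 and 0.34 on the horizontal axis, where lymphoma replicates 1 and 6 also lie.

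Total counts and scaling factors were examined in the same way. In lymphoma the chromosome 20 mean had an r of 0.62 with the total count (exact permutation p = 0.096, adjusted p = 0.144; rho 0.79, exact p = 0.048, adjusted p = 0.144) and 0.79 with the TMM factor (exact permutation p = 0.0718, adjusted p = 0.144; rho 0.43, exact p = 0.354, adjusted p = 0.424). Without replicates 2 and 7 the relation with the TMM factor was -0.16, so it rested on those libraries, and without replicates 6 and 7 that with the total was 0.51. In non-lymphoma libraries r was 0.20 with the total (exact permutation p = 0.721, adjusted p = 0.865; rho 0.46, exact p = 0.302, adjusted p = 0.424) and -0.08 with the factor (exact permutation p = 0.884, adjusted p = 0.884; rho -0.11, exact p = 0.84, adjusted p = 0.84). Without the 2 farthest libraries these were 0.30 and 0.24.

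The shift was seen in each class of gene structure and abundance that was compared. The 38 tested genes with 2 exons, the fewest the definition admits, had a mean difference of -0.33, the 43 with 3 exons -0.22 and the 548 with 4 or more -0.26. The 23 tested single-exon genes of chromosome 20, just outside the definition, had -0.43. Of these 4 (17.4%) were called lower and 1 (4.35%) higher, against 7.4% and 9.21% of all tested genes. Genes on the plus strand (333) and on the minus strand (296) had mean differences of -0.29 and -0.23. The 214 genes that overlap another annotated gene and the 415 that do not had -0.25 and -0.27. By 5 equal classes of abundance over all tested multi-exon autosomal genes, from low to high, the chromosome 20 means were -0.37, -0.24, -0.35, -0.22 and -0.15, and those of the other autosomes -0.19, -0.02, 0.03, 0.06 and 0.06. The tested genes were like those of other autosomes in structure, with medians of 10 exons in both and of 2043 and 2129 exonic bases.

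Among single genes, 94 of the lower and 24 of the higher calls reached an average log2 CPM of 1 and had 6 or more lymphoma libraries on the side of the change. The 12 largest falls and the 8 largest rises of these are named. Among them 5 falls and 5 rises overlap another annotated gene by span, so their values are uncertain where exons are shared. The fall starting at 53783993 and the rises starting at 8240311, 45383915, 45461676 and 54575895 each overlap 1 other gene. Of the 12 falls 5 lay beyond 55 Mb. ENSCAFG00000019175, a gene with 2 exons and 1032 exonic bases on the plus strand at 55824410 to 55828980, had the largest fall. Its level was 0, 0.45 and 0.89 CPM at the lowest, median and highest of the lymphoma libraries and 0.631, 3.34 and 8.87 CPM in the non-lymphoma libraries. The log2 fold change was -3.22 (SE 0.61; adjusted p = 0.00456, edgeR), a gene of low abundance with at most 12 counts in a lymphoma library. The groups overlapped through non-lymphoma replicate 2, the lowest of its group.

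The second fall, and 2 others beyond 55 Mb, had groups that did not overlap. ENSCAFG00000019617, a 26-exon gene on the minus strand at 57667706 to 57677342, had 1.21, 4.16 and 7.90 CPM in lymphoma and 9.10, 18.3 and 26.5 CPM in non-lymphoma libraries (lowest, median and highest). This was a log2 fold change of -2.11 (SE 0.40; adjusted p = 0.0047, edgeR), and it was the 1 chromosome 20 gene called within the 5-digit libraries (log2 fold change -2.70, edgeR adjusted p = 0.0482). It lies inside the span of another named gene on the same strand, the 26-exon gene at 57657154 to 57787713, which spans 12 other annotated genes. That gene had 280, 421 and 623 CPM in lymphoma and 917, 1151 and 1763 CPM in non-lymphoma libraries. Its log2 fold change was -1.49 (SE 0.23; adjusted p = 0.00145, edgeR). Both values are uncertain, since reads in shared exons could not be assigned.

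The third gene of this stretch overlaps no other gene. It has 15 exons, lies on the plus strand at 55698350 to 55704022, and had 4.38, 5.69 and 8.24 CPM in lymphoma and 11.2, 19.2 and 26.6 CPM in non-lymphoma libraries. Its log2 fold change of -1.56 had the smallest adjusted p of the 12 falls (SE 0.23; adjusted p = 0.00103, edgeR). A 5-exon gene at 57879722 to 57884172, the second called gene from that end, had 3.15, 4.42 and 8.98 CPM against 6.03, 16.1 and 31.3 CPM, with a log2 fold change of -1.72 (SE 0.37; adjusted p = 0.00793, edgeR) and overlapping groups. The last called gene of the chromosome, with 20 exons at 57908351 to 57920027, had 2.88, 7.49 and 11.48 CPM against 12.03, 13.2 and 23.5 CPM. Its groups did not overlap and its log2 fold change was -1.05 (SE 0.27; adjusted p = 0.0172, edgeR).

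Falls elsewhere on the chromosome included a very short gene at high level per base. The gene with 2 exons and 237 exonic bases at 46183086 to 46184953 had 11.53, 20.1 and 43.6 CPM in lymphoma and 53.4, 75.4 and 129 CPM in non-lymphoma libraries, with groups that did not overlap. The log2 fold change was -1.74 (SE 0.28; adjusted p = 0.0019, edgeR). Per kb of exon its mean level was 102 CPM in lymphoma and 343 CPM in non-lymphoma blood, the highest per length of the 12 falls. The 2-exon gene with 4918 exonic bases at 44736832 to 44763020, which overlaps 2 others, had 7.20, 13.4 and 23.0 CPM against 19.9, 43.8 and 65.3 CPM. This was a log2 fold change of -1.52 (SE 0.27; adjusted p = 0.00375, edgeR), with 6 lymphoma libraries lower than all controls.

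At the gene-poorer start of the chromosome, a 3-exon gene at 2978727 to 3011715 had 3.49, 8.83 and 9.49 CPM in lymphoma and 8.22, 23.8 and 38.9 CPM in non-lymphoma libraries. Its log2 fold change was -1.60 (SE 0.32; adjusted p = 0.00597, edgeR). The first 2 called genes of the chromosome were both lower. An 11-exon gene at 1653855 to 1671666 had 33.1, 34.3 and 49.6 CPM against 50.2, 59.4 and 91.0 CPM, without overlap of the groups, and a log2 fold change of -0.65 (SE 0.17; adjusted p = 0.0181, edgeR). The 12-exon gene at 1766216 to 1943588 had 2.27, 3.49 and 13.6 CPM against 3.86, 15.4 and 17.2 CPM, and a log2 fold change of -1.37 (SE 0.40; adjusted p = 0.0311, edgeR).

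This last call and those of 3 other named falls were lost when single libraries were left out. The gene at 1766216 lost its call in 7 of 14 such fits (edgeR adjusted p up to 0.0629). The 69-exon gene at 37249746 to 37276535 lost it in 9 of 14. Its level was 1.28, 3.596 and 8.75 CPM in lymphoma and 5.19, 7.02 and 52.8 CPM in non-lymphoma libraries, where replicate 2 alone gave the 52.8. The log2 fold change of -1.74 (SE 0.57; adjusted p = 0.0466, edgeR) became -0.78 without that library (edgeR adjusted p = 0.156). The 4-exon gene at 53783993 to 53785524, with 0, 1.99 and 2.55 CPM against 3.46, 4.60 and 5.39 CPM and a log2 fold change of -1.40 (SE 0.43; adjusted p = 0.0373, edgeR), lost its call in 7 fits (adjusted p up to 0.0742 by edgeR). The 3-exon gene at 53679880 to 53682706, with 0.759, 2.997 and 6.17 CPM against 4.14, 6.79 and 15.2 CPM and a log2 fold change of -1.37 (SE 0.41; adjusted p = 0.0338, edgeR), lost it in 8 (adjusted p up to 0.0754 by edgeR).

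The rises were fewer, and 7 of the 8 named lay beyond 43 Mb, among the genes whose bulk was lower. ENSCAFG00000018859, a 37-exon gene on the plus strand at 54575895 to 54672068, had the largest rise, with 0.607, 7.19 and 20.8 CPM in lymphoma and 0.351, 2.08 and 3.32 CPM in non-lymphoma libraries. The log2 fold change was 2.13 (SE 0.59; adjusted p = 0.0231, edgeR), with 5 lymphoma libraries above every non-lymphoma library and replicate 2 the lowest of its group. ENSCAFG00000031353, a 5-exon gene at 45383915 to 45387178 on the plus strand, had 11.7, 42.2 and 70.7 CPM against 2.66, 7.33 and 20.9 CPM and a log2 fold change of 2.06 (SE 0.51; adjusted p = 0.0139, edgeR). Near it, a 9-exon gene at 45461676 to 45465417 had 3.87, 7.28 and 11.6 CPM against 1.59, 2.78 and 4.995 CPM, with a log2 fold change of 1.31 (SE 0.31; adjusted p = 0.0119, edgeR).

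The rise with the smallest adjusted p was the only one of the 8 with groups that did not overlap. It was a 37-exon gene on the minus strand at 43359206 to 43532219 that overlaps 5 annotated genes, with 56.9, 91.4 and 216 CPM in lymphoma and 11.3, 26.4 and 48.1 CPM in non-lymphoma libraries. This was a log2 fold change of 1.98 (SE 0.35; adjusted p = 0.00343, edgeR), and 1.27 within the 5-digit libraries. A 5-exon gene at 46319315 to 46326600, which overlaps no other, had 14.5, 34.7 and 48.8 CPM against 1.82, 5.93 and 21.3 CPM and a log2 fold change of 1.99 (SE 0.43; adjusted p = 0.00808, edgeR). It is 3 tested genes further along than the fall at 46183086, and the pair moved in opposite directions.

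The remaining rises were sensitive to the choice of libraries. A pair of adjacent genes on the minus strand rose together in the stretch from 50 to 52 Mb. The 4-exon gene at 50817411 to 50818498 had 6.45, 12.1 and 36.4 CPM against 4.11, 6.25 and 11.8 CPM, with a log2 fold change of 1.34 (SE 0.38; adjusted p = 0.0265, edgeR). The 7-exon gene at 50818715 to 50827914 had 0.749, 5.57 and 20.9 CPM against 0.771, 1.63 and 5.28 CPM, with a log2 fold change of 1.93 (SE 0.56; adjusted p = 0.0297, edgeR). Without 1 library these calls were lost in 4 and 6 of 14 fits. The one named rise near the start of the chromosome was a 47-exon gene at 8240311 to 8297568 with 60.3, 98.0 and 249 CPM against 11.54, 49.4 and 75.7 CPM. Its log2 fold change was 1.33 (SE 0.38; adjusted p = 0.0262, edgeR), and its call was lost in 4 fits. In all 3 the libraries that ended the call included lymphoma replicate 2. The other calls among the named falls and rises were kept in every fit without 1 library, and within the 5-digit libraries the 20 named falls and rises kept their direction.

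**Figure D5:**
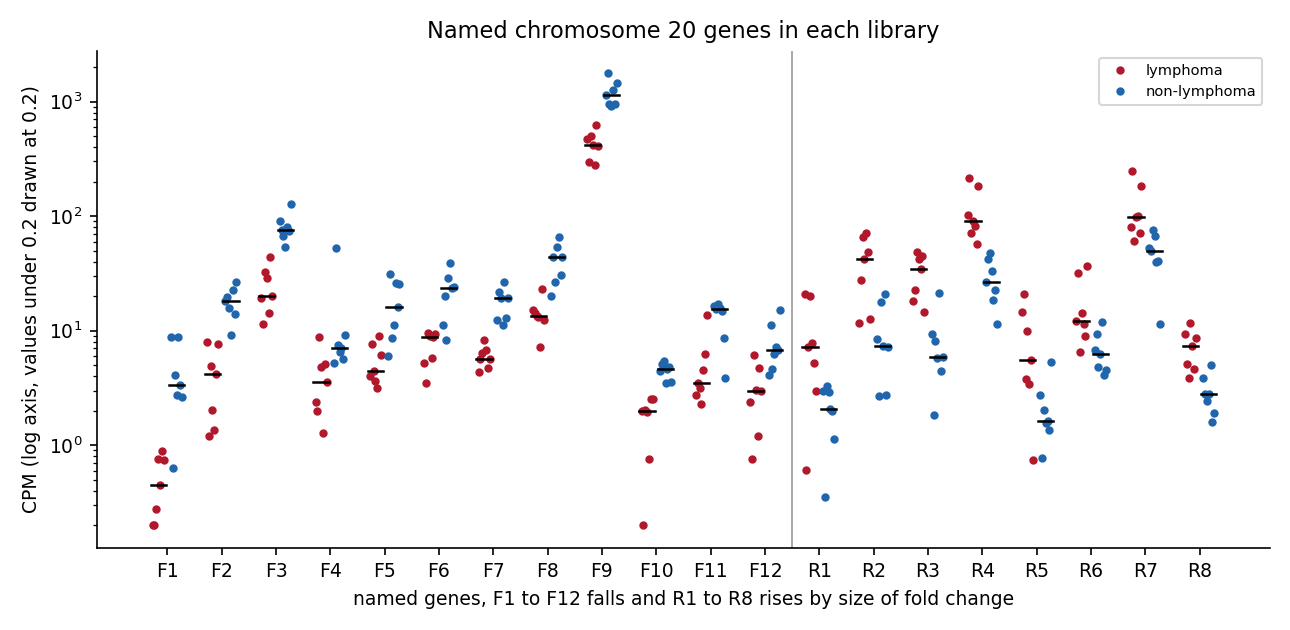
CPM on a log axis for the 12 named falls (F1 to F12) and 8 named rises (R1 to R8), ordered by log2 fold change, in 7 lymphoma (red) and 7 non-lymphoma (blue) libraries, with medians as bars. The groups do not overlap in 5 of the falls and in 1 of the rises, the gene starting at 43359206 (R4).

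The 5 most abundant genes of chromosome 20 per kb of exon did not pass the test. Ranked by mean CPM per kb of exon over all 14 libraries, the first was a 5-exon gene at 56769319 to 56770930 with 1250 CPM per kb, followed by a 3-exon gene at 39889174 to 39890260 with 1217. The next were a 5-exon gene at 44477130 to 44479948 with 761, a 5-exon gene at 45036510 to 45039935 with 572 and a 6-exon gene at 5750407 to 5756211 with 541. The first had 804, 958 and 2266 CPM in lymphoma and 974, 1092 and 2239 CPM in non-lymphoma libraries, and its log2 fold change was -0.05 (SE 0.28; adjusted p = 0.924, edgeR). The log2 fold changes of the others were 0.26, -0.11, 0.06 and -0.25, their SEs 0.41, 0.32, 0.28 and 0.25, and edgeR's adjusted p-values were 0.497 or more. The first gene lies beyond 55 Mb, where the bulk of genes was lower.

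Differences between libraries of one group were much larger than the chromosome-wide shift for some genes. Among genes with an average log2 CPM of at least 3, the 3 with the largest SD over non-lymphoma libraries were a 3-exon gene at 40790811 to 40792794 (SD of log2 CPM 2.36), a gene with 3 exons and 318 exonic bases at 20248829 to 20258390 (2.17) and a 39-exon gene at 53566261 to 53598761 (1.87). The first had 14.4, 132 and 406 CPM in lymphoma and 1.01, 4.15 and 131 CPM in non-lymphoma libraries. All 7 lymphoma libraries lay above the non-lymphoma median and the log2 fold change was 2.59 (SE 1.01), but it did not pass (edgeR adjusted p = 0.0835). Without non-lymphoma replicate 2 it was 4.35 and passed (edgeR adjusted p = 0.00995), while over the other fits without 1 library the adjusted p stayed above the threshold, up to 0.161 by edgeR. The second had 2.40, 5.25 and 19.8 CPM against 0.611, 1.36 and 34.6 CPM, with a log2 fold change of -0.08 (SE 0.78; adjusted p = 0.955, edgeR), although its difference of mean log2 CPM was 0.93. The third had 11.2, 27.3 and 160 CPM against 2.89, 3.53 and 52.7 CPM, with a value of 1.48 (SE 0.81; adjusted p = 0.202, edgeR), which was 0.79 without lymphoma replicate 4 and 2.06 without non-lymphoma replicate 2, not called in either. Non-lymphoma replicate 2 had the highest non-lymphoma level of all 3 genes.

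The spread of the chromosome 20 mean between libraries was wider in lymphoma in these data, but not beyond what the test can call. The mean absolute deviation of the library means from their group median was 0.11 in lymphoma and 0.06 in non-lymphoma blood, a difference of 0.05 in log2 CPM (two-sided exact permutation of the centred deviations over all assignments, p = 0.397, smallest possible 0.000583). Without lymphoma replicate 2 the difference was 0.01 (exact permutation p = 0.879). On the other autosomes the deviations were 0.03 and 0.04 (exact permutation p = 0.672). For single genes of chromosome 20, the median SD of log2 CPM was 0.52 in lymphoma and 0.43 in non-lymphoma libraries, and 400 of 629 genes (63.6%) had the larger SD in lymphoma, against 60.8% on the other autosomes. In the lowest class of abundance 82.3% of the chromosome 20 genes had the larger SD in lymphoma, and in the highest class 37.1%, against 75.6% and 47.5% on the other autosomes. Of the lymphoma libraries 6 also had totals lower than all controls, and the part of depth in these spreads was not tested.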

How the data were processed

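Raw counts of read pairs per gene were deposited by the authors in 1 table, made with featureCounts 2.0.1 on exons of the CanFam3.1 annotation of Ensembl release 103 with no strand option, per the file headers. HISAT2 2.2.1, Subread 2.0.1 and DESeq2 are listed per the submitters' processing notes. Antisense and overlapping genes could therefore not be told apart by strand, and reads in exons of more than 1 gene are not assigned by that tool's default. Groups were taken from the labels.

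All 12836 genes that passed filterByExpr were fitted in edgeR 4.0.16 (R 4.3.3; TMM factors, quasi-likelihood test, group as the only term, Benjamini-Hochberg adjustment). The biological coefficient of variation was 41.5%, and SEs were computed as |log2 fold change|/√F. Values of log2 CPM used a prior count of 2. Single values were compared with exact permutation tests in scipy 1.17.1 (Python 3.11.15, numpy 2.4.6, pandas 2.3.3, matplotlib 3.10.9). The steps were checked on simulated data. No 2 libraries were near-identical (smallest chi-square per degree of freedom 62.1).

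The chromosome, the lists and the rules were chosen with earlier results of these data known. Named genes were, among called genes that reached an average log2 CPM of 1 with 6 or more lymphoma libraries on the side of the change, the 12 largest falls and 8 largest rises, with the 5 most abundant genes per kb, the 3 most variable in non-lymphoma libraries and the 2 called genes nearest each end. Marker lists could not be matched to identifiers and were not used. Alternatives covered RLE and upper-quartile factors, DESeq2 1.42.0, limma 3.58.1, filters, thinning, thresholds, a replicate block and subsets of libraries. Near-identical gene copies and GC content were not analysed here.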

Additional observations from a re-analysis of the deposited data

Results flagged for a closer look

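Of 66 groups of 7 libraries examined for a library far from the rest, 6 held one, where chance gives about 1 in 20, or 3.3. The value given is the gap of the extreme library to its nearest neighbour divided by the range of the group, on log2 CPM. Non-lymphoma replicate 2 was the highest of its group in the gene starting at 37249746 (0.753) and in the gene most abundant per kb, starting at 56769319 (0.672). Non-lymphoma replicate 7 was the lowest in the genes starting at 8240311 (0.654) and 44477130 (0.642), and the highest in the gene starting at 1653855 (0.577). Lymphoma replicate 2 was the lowest of its group in the gene starting at 53783993 (0.628), where it had 0 counts.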

How the results depend on the processing

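The mean difference of the chromosome 20 genes stayed negative under all 25 alternatives run, from -0.36 without a filter on low counts to -0.21 without lymphoma replicates 2 and 7, and from -0.30 to -0.22 with 1 library left out. The share of negative log2 fold changes was 66.7 to 72.5% with 1 library left out and 77.2% without a filter, where 951 genes were tested. Lower calls numbered 59 to 111 with 1 library left out, 57 without lymphoma replicates 2 and 7, 1 in the 5-digit libraries and 19 at an adjusted p of 0.01. Higher calls numbered 14 to 29 with 1 library left out, 13 without a filter, 0 in the 5-digit libraries and 4 at an adjusted p of 0.01. With the replicate number as a block, 34 genes were lower and 8 higher, where 2.22% and 3.43% of all tested genes were. Of these calls 34 and 7 were among the 98 and 26 without the block. The gene starting at 40790811 passed under the block, at 3.80 on the log2 scale (edgeR adjusted p = 0.0498). Same-numbered libraries did not deviate together (correlations from -0.34 to 0.35), and 1 of 7 non-lymphoma libraries correlated best with its own number. The numbers are used here only to name libraries. This check cannot show whether they also pair them, since paired libraries need not deviate together. Fewer samples or residual degrees of freedom enter these fits, and other causes were not tested. DESeq2 called 144 lower and 35 higher genes, and upper-quartile factors 112 and 20.

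The spread test was not passed under any of its 17 alternatives (exact p of 0.113 or more). For the 2 density windows, the dense minus sparse contrast on chromosome 20 was -0.28 and -0.29, against -0.36 at 500 kb. Among single genes, the sign turned in 5 that were not called. For the gene starting at 56769319 the log2 fold change became 0.003 without lymphoma replicate 1, 0.02 without 3, 0.04 without 4, 0.03 without 5 and 0.16 without non-lymphoma replicate 2 (range with 1 library left out -0.27 to 0.16). For that at 39889174 it became -0.30 in the 5-digit libraries and -0.0827 without lymphoma replicate 7 (range -0.0827 to 0.452). For that at 44477130 it became 0.00498 without lymphoma replicate 3 (range -0.387 to 0.00498). For that at 45036510 it became -0.13 in the 5-digit libraries, -0.12 without lymphoma replicate 1, -0.04 without non-lymphoma replicate 5 and -0.05 without 7 (range -0.12 to 0.2). For that at 20248829 it became 1.07 with the block, 0.34 in the 5-digit libraries, 0.02 without lymphoma replicate 1, 0.02 without 2, 0.08 without 5, 0.002 without 7, 0.89 without non-lymphoma replicate 2 and 0.06 without 7 (range -0.46 to 0.89).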
